A study of Mus musculus with 3 samples.

Results

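The genes followed here through mouse spermatogenesis are 10 genes of the actin machinery, namely 3 subunits of capping protein (Capza1, Capza3 and Capzb), 3 profilins (Pfn1, Pfn3 and Pfn4) and 4 actin-related genes (Actl7a, Actl7b, Actrt2 and Actrt3). They are 10 of the 31053 genes of the deposited count table, and each was found there by its symbol. The set was put together because, in an earlier look at these libraries, Pfn1 was higher and Capza3 lower in the round spermatids of both mutants. The genes were thus chosen by those values, which are given as a description and support nothing by themselves.

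Capping protein is a dimer of an alpha and a beta subunit that sits on the fast-growing end of an actin filament and stops its growth. Capza1 and Capza2 are the alpha subunits of most cells, Capza3 is the alpha subunit of spermatids and sperm, and Capzb gives the beta subunit, including a form made in the testis. The profilin made from Pfn1 binds actin monomers and hands them to growing filaments. Pfn1 is the profilin of nearly all cells, whereas Pfn3 and Pfn4 are made mainly in the testis. In spermatids, actin lies between the growing acrosome and the nucleus, in the acroplaxome, and actin-related proteins such as Actl7a, Actl7b, Actrt2 and Actrt3 are components of the spermatid head and of the perinuclear theca, the layer that joins the acrosome to the nucleus.

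The study compared testicular cells of wild-type mice (WT) with those of mice without the RNA helicase GRTH (gene Ddx25), called KO, and of knock-in mice, called KI. KO mice lack both forms of GRTH. KI mice carry a human GRTH gene with a missense mutation and lack the phosphorylated form of the protein while keeping the other form. All 3 groups were C57BL/6 males aged 8 weeks in the sample labels, and the study's methods give a wider range of adult ages and testes pooled from a pair of mice, where the labels name a single mouse of each genotype. After removal of the outer capsule, cells of the seminiferous tubules were dispersed with collagenase and trypsin, and 7000 cells of each genotype were loaded on a droplet device. A short 3′ stretch of each captured transcript was read with a molecular identifier (UMI), so 1 UMI stands for 1 captured molecule whatever the length of the gene. Each genotype was 1 library, so no difference between genotypes had a replicate, no test across samples was possible and genotype and library cannot be told apart. Intervals below are 95% intervals, exact Poisson for sums of UMIs and exact Clopper-Pearson for shares, and cover counting error only.

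The genes lie apart in the genome except for one pair. In the GENCODE M21 annotation of GRCm38, Capza3 is on chromosome 6 from 140041252 to 140042778 and Capza1 on chromosome 3 from 104822779 to 104864505. Actl7a and Actl7b stand head to head on chromosome 4, at 56743413 to 56744925 and 56740005 to 56741443, with 1969 bases between them. Pfn3 (chromosome 13, 55414688 to 55415232), Capza3, Actl7a, Actl7b and Actrt2 have a single exon, which makes 5 genes of the 10. Capzb lies on chromosome 4 from 139192899 to 139291818, Actrt2 on the same chromosome from 154666433 to 154667867 and Actrt3 on chromosome 3 from 30597073 to 30599939. Pfn1 lies on chromosome 11 from 70651850 to 70654644 and Pfn4 on chromosome 12 from 4769022 to 4778813. A stretch of 206 bases of Capza3 is overlapped by Plcz1, a sperm phospholipase gene on the other strand.

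Promoter sequences from RefSeq (GRCm38.p6) were found for 9 of the 10 genes, all but Capza3. Many genes that are switched on in round spermatids have a cAMP response element near their start, which the testis factor CREM binds. The full element, TGACGTCA on either strand, was in none of the 9 promoters from 250 bases before to 50 after the start, and was in 1.79% of all 32851 promoters. Its shorter part TGACG, on either strand and counted also inside the full element, was in 3 of 9 (Pfn3, Actrt3 and Capzb) and in 20.8% of all promoters. The TATA box TATAAA was in 0 of 9 and in 13.6% of all. Pfn3 held the shorter part on both strands, with the first base at 61 and 47 bases before the start. The 120 bases before the start of Pfn3 and of Pfn1, the testis and the general profilin, are shown to set a promoter with these letters beside one without. Capitals mark TGACG and its reverse complement, and both genes lie on the minus strand, at chr13:55415233-55415352 and chr11:70654651-70654770.
Pfn3: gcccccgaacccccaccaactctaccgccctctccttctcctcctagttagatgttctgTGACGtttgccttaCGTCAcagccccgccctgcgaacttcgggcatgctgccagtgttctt
Pfn1: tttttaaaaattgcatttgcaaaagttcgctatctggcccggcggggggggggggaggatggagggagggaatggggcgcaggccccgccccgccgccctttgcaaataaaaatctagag

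The libraries held 82973909 (WT), 91388296 (KO) and 73150373 UMIs (KI), and 5863, 4074 and 1577 cells passed the filters. Median UMIs per cell were 5129, 3950.5 and 11643. Cells fell into 15 clusters, built without the genes described here and named from marker genes: spermatocyte-like (SP-like, clusters 7, 11, 3 and 12), round spermatid-like (RS-like, clusters 2 and 8), elongating spermatid-like (ES-like, clusters 1 and 5), early SP-like (cluster 10) and somatic classes, with clusters 4 and 6 unnamed. RS-like cells numbered 1107, 898 and 337 with 10218035, 5952469 and 5262033 UMIs, of which cluster 8 held 88.5%, 80.5% and 86.6%. Ddx25 had 1018 UMIs in the RS-like cells of WT, 0 in KO and 672 in KI, which goes with the labels. The WT and KI libraries shared 37 cell barcodes, WT and KO 16 and KO and KI 8, where 1.36, 3.52 and 0.946 were expected for unrelated libraries. When the libraries were clustered without integration, the RS-like cells of highest UMI count fell into separate clusters, one with 435 WT, 7 KO and 1 KI cells and one with 0, 216 and 97. Capza3 was at 570.2 CPM in the WT cells of the former and at 447 and 476 in the KO and KI cells of the latter, and Pfn1 at 15.7, 105 and 91.1. The part of this split in the differences below was not tested, and levels are counts per 1000000 UMIs of the same cells (CPM).

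**Figure D1:**
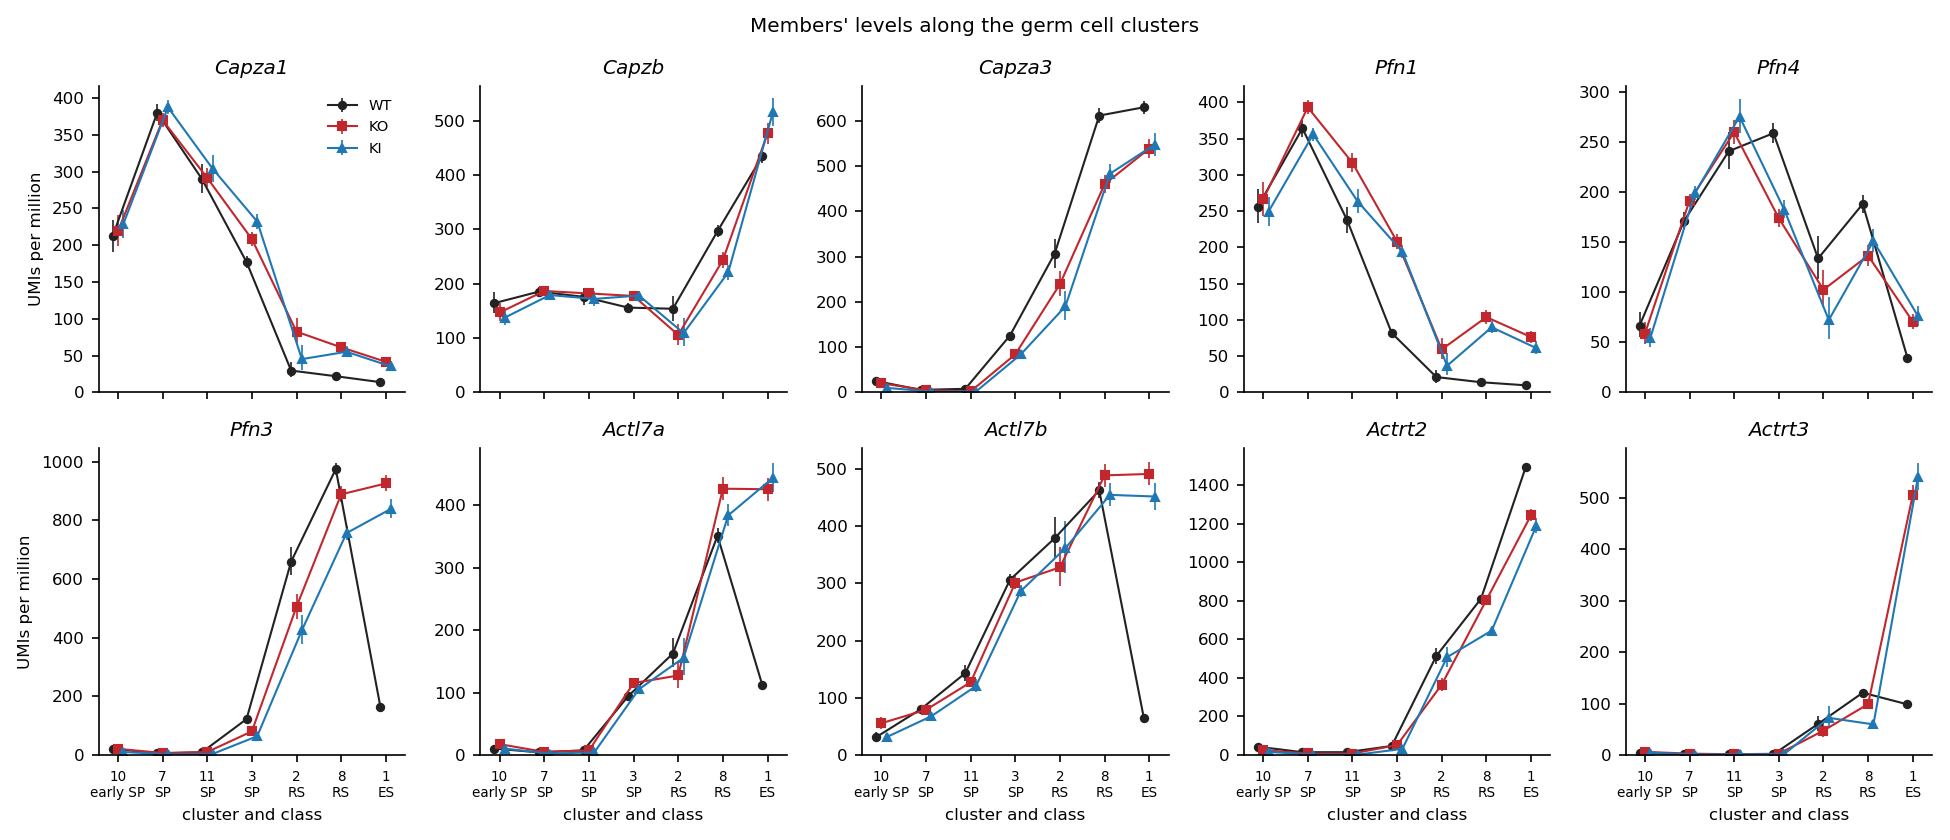
CPM of each gene (vertical axis, from 0) in 7 germ cell clusters in an assumed order of stage (horizontal axis), for WT (circles), KO (squares) and KI (triangles), with 95% Poisson intervals of counting error. Capza1 and Pfn1 were highest in SP-like cluster 7 in all libraries, and Capza3, Pfn3, Actl7a, Actl7b, Actrt2 and Actrt3 were lower there than in RS-like cluster 8 in every library.

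Capza1 and Pfn1 were lower, and Capza3 and Pfn3 higher, in RS-like cluster 8 than in SP-like cluster 7 of every library. Capza1 was at 380.1 (WT), 370.0 (KO) and 387 CPM (KI) in cluster 7, and at 22.1, 61.4 and 55.3 in cluster 8. Capza3 was at 5.74, 4.87 and 1.80 in cluster 7 and at 611, 459.8 and 483 in cluster 8. Pfn1 was at 364, 393 and 356 in cluster 7 and at 14.2, 104 and 90.0 in cluster 8, while Pfn3 was at 5.15, 6.86 and 2.41 and then at 975, 889 and 757. Pfn4, also a testis profilin, did not follow Pfn3, with log2 differences between cluster 8 and cluster 7 of 0.13 (WT), −0.48 (KO) and −0.39 (KI). The log2 difference of Pfn1 between cluster 8 and cluster 7 was −4.59 for WT (−4.84 to −4.35), −1.91 for KO (−2.04 to −1.78) and −1.97 for KI (−2.12 to −1.83), which restates the Pfn1 levels in round spermatids that chose the genes, since cluster 7 was at a like level in the 3 libraries.

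The other genes turned on at different stages. Actl7b was already at 79.9, 79.0 and 67.8 CPM in cluster 7 and at 306, 301 and 286 in cluster 3, the latest spermatocyte-like cells, whereas Actrt3 was at 1.25, 2.45 and 1.67 in cluster 3 and at 121, 98.9 and 59.5 in cluster 8. Pfn4 had its highest level in spermatocyte-like cells, at 259 CPM in cluster 3 of WT and at 259.5 and 275 in cluster 11 of KO and KI. In WT, cluster 11 was at 241 CPM with an interval that overlapped that of cluster 3, so no difference in peak cluster is read from this. Capzb was at 186, 187 and 179 in cluster 7 and at 434, 477 and 515 in ES-like cluster 1, where its level was highest. UMIs of one gene do not tell its transcript forms apart, so the testis form of Capzb was not measured. Actrt2 also was highest in cluster 1, at 1492, 1244 and 1189 CPM.

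Over 41 points, each a cluster in a library with at least 20 cells, the courses of Capza3 and Actrt2 had a Pearson r of 0.94 and those of Capza3 and Pfn3 an r of 0.93, on log2(CPM + 10). Capza3 and Pfn1 had an r of −0.68, and Capza1 and Actrt2 an r of −0.79. Among 10871 genes, those most like Capza3 were Armc12, 1700010D01Rik, Spata19, 1700109G14Rik and Tmem247, all with an r of 0.98. The 5 most like Pfn1 were Rack1 (r = 0.91), Rps3, Set, Rhoa and Atp5a1 (r = 0.90 each). These points share libraries, depth and the germ cell order, and no p-value was taken.

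In RS-like cells of WT the order of levels was Pfn3 (939 CPM), Actrt2 (777), Capza3 (576), Actl7b (453), Actl7a (329.6, interval 319 to 341), Capzb (280.3), Pfn4 (182), Actrt3 (114), Capza1 (23.0) and Pfn1 (15.0), and no interval overlapped that of its neighbour. In KO, Actl7b stood above Capza3 and Pfn1 came before Actrt3, with overlapping intervals for the latter pair. In KI, Capza3 and Actl7b overlapped at 444 and 442 CPM, as did Actrt3 and Capza1 at 61.2 and 54.0. Pfn3 and Actrt2 thus led the list in every library, and Pfn1 was last in WT but not in the mutants.

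The question of the comparison between genotypes was which of these transcripts differ when GRTH, or its phosphorylated form, is missing. A gene was counted where its mean over the 3 libraries was at least 10 CPM and its ratio to WT, with 1 CPM added, was at least 1.5 either way. In RS-like cells, 2 of the 10 genes were past this ratio above WT in KO and 2 in KI, where 30.4% and 32.6% of all 8046 genes were. Below WT there were 0 of 10 in KO and 1 in KI, where 9.53% and 12.0% of all genes were. The shares of higher genes are thus below those of all genes, the contrast is the one that chose the genes, and nothing is read from these counts. The median log2 ratio was −0.16 in KO and −0.34 in KI over the 10 genes and 0.30 and 0.31 over all genes.

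That positive median over all genes depended on the scale. TMM factors, which trim genes of extreme ratio, shifted the median over all genes in RS-like cells by −0.41 in KO and −0.39 in KI. With them 2 of the 10 genes were above WT by the ratio of 1.5 in KO and 2 in KI, and 5 and 6 were below it, against 12.5% and 13.7% of all genes above and 22.1% and 23.4% below. The summed level of the ES markers, led by protamines and transition proteins, was 70757 CPM in WT RS-like cells against 18624 and 14301 in KO and KI, so the total that divides each count was differently filled. All 13 of these markers were detected in each library. With the protamine and transition protein genes left out of the total, the log2 ratios were 2.52 and 2.32 for Pfn1 and −0.54 and −0.46 for Capza3, and any further part of this gap was not tested.

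**Figure D2:**
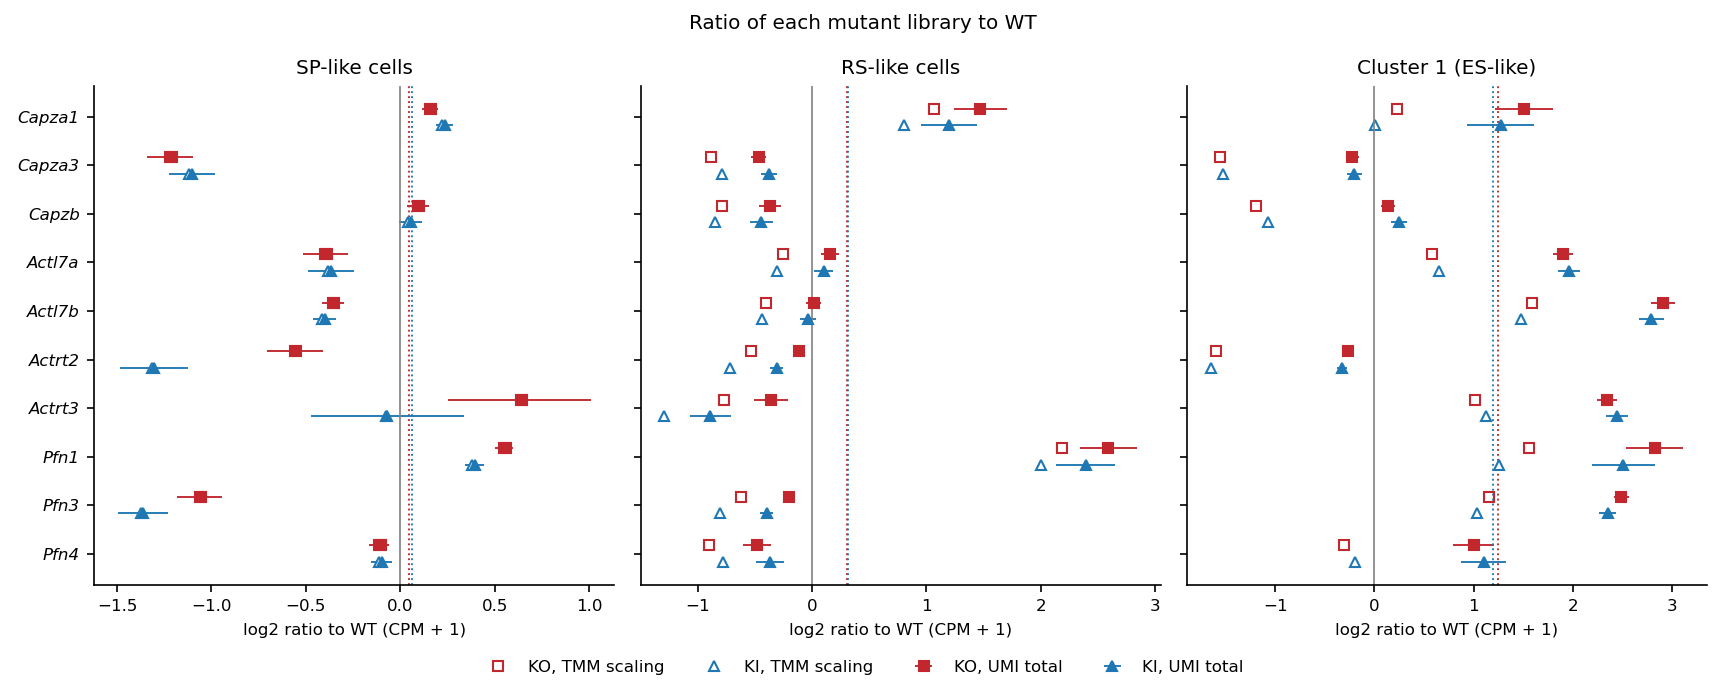
Log2 ratio of CPM + 1 to WT (horizontal axis) for each gene in SP-like cells, RS-like cells and ES-like cluster 1, for KO (squares) and KI (triangles). Filled symbols use UMI totals with 95% intervals, open symbols use TMM scaling and dotted lines mark the median of all genes. In RS-like cells Pfn1 (2.59 and 2.39) and Capza1 (1.47 and 1.20) stood above WT under both scales, Capza3, Capzb, Actrt2, Actrt3, Pfn3 and Pfn4 stood below it under both, and Actl7a in both mutants and Actl7b in KO were above WT with totals and below it with TMM.

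Pfn1, chosen for its difference in RS-like cells, had 153 (WT), 567 (KO) and 436 UMIs (KI), or 15.0 CPM there (interval 12.7 to 17.5), 95.3 (87.6 to 103) and 82.9 (75.3 to 91.01). Both mutants were high, their intervals overlapped each other and neither reached that of WT. The ratio was 6.03-fold in KO and 5.25-fold in KI, a log2 ratio of 2.59 (2.34 to 2.84) and 2.39 (2.14 to 2.65), which lay 2.29 and 2.08 above the median of all genes. In cluster 8 alone the log2 ratios were 2.79 and 2.59. Cluster 2 is called the earlier RS-like cluster only because its ES markers stood lower against its RS markers than in cluster 8. Whether it is an earlier stage was not tested. Its cells were shallower, with median UMIs of 1172 (WT), 1347 (KO) and 1875.5 (KI), against 13524, 15182 and 30684 in cluster 8. In cluster 2 WT had 25 UMIs of Pfn1, KO 69 and KI 26. The ratios were 1.44 (0.79 to 2.12) and 0.76 (−0.04 to 1.57), so the KI ratio there was not distinguishable from 0 at this depth.

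Free RNA and neighbouring stages carry Pfn1 as well, and their levels stand beside that result. Empty barcodes held Pfn1 at 75.9 (WT), 174 (KO) and 144 CPM (KI), above the RS-like cells of the same library each time. The 12 markers of pachytene to late spermatocytes, all detected, summed to 1429, 2497 and 2514 CPM in RS-like cells, and markers of early spermatocytes (14, 14 and 13 of 14) to 394, 759.7 and 735. Sertoli markers (9, 10 and 9 of 10 detected) summed to 11.2, 32.3 and 15.2 CPM and macrophage markers (9, 5 and 7 of 9) to 14.2, 14.6 and 10.6, with haemoglobin genes at 0, 0.168 and 0.190 and stromal and myoid markers (8, 10 and 6 of 10) at 11.3, 57.8 and 52.1. Spermatogonial markers (15, 15 and 13 of 16) summed to 434, 604 and 600.1 CPM, endothelial markers (4 of 4 in each) to 10.4, 27.6 and 24.5 and Leydig markers (4, 5 and 5 of 6) to 1.27, 5.54 and 5.89, each higher in both mutants. Median mitochondrial shares were 0.00932%, 0.142% and 0.0565% of a cell's UMIs. The part of these differences in the Pfn1 ratio was not tested.

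The share of RS-like cells with a Pfn1 UMI was higher in both mutants than in WT. Cells were thinned to 2000 UMIs each, which left 602 of 1107 WT, 382 of 898 KO and 207 of 337 KI cells. Pfn1 was then found in 3.49% of WT cells (2.17 to 5.28), 13.1% of KO cells (9.87 to 16.9) and 11.1% of KI cells (7.18 to 16.2), and without thinning in 11.2%, 24.7% and 33.5%. In the thinned cells both mutants were above WT with no overlap and overlapped each other, while the unthinned share was higher in KI than in KO, against the order of their CPM. Cluster 8 gave 460, 227 and 101 of the thinned cells and cluster 2 the rest, so the clusters were mixed differently. In cluster 8 alone the thinned shares were 3.48%, 16.3% and 14.9%, with both mutants again above WT without overlap. Sertoli-like cells, whose own Pfn1 was not told apart from that of other cells, gave 28.1%, 49.4% and 54.5% when thinned (64, 85 and 22 cells). Their median was 1335, 1481.5 and 1100.5 UMIs before thinning, against 2424, 1671.5 and 2634 in RS-like cells.

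Capza3 was at 576 CPM in WT (interval 562 to 591), against 417 for KO (401 to 434) and 444 for KI (426 to 462), from 5887, 2481 and 2334 UMIs. Both mutants were low and overlapped each other, and neither overlapped WT. WT stood 1.38-fold above KO and 1.30-fold above KI, a log2 ratio of −0.47 (−0.53 to −0.40) and −0.38 (−0.45 to −0.31), short of the ratio of 1.5 used for counting. Relative to the median of all genes the differences were −0.77 and −0.69, and with TMM they were −0.88 and −0.78. Where cells were instead assigned by the share of marker UMIs, the ratios were −0.13 and −0.07, and the interval in KI just reached 0.

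Empty barcodes held Capza3 at 445 (WT), 269 (KO) and 395 CPM (KI), with both mutants below WT there too. In thinned RS-like cells Capza3 was found in 61.1% of WT (57.1 to 65.0), 52.1% of KO (47.0 to 57.2) and 40.6% of KI cells (33.8 to 47.6), and without thinning in 63.3%, 47.3% and 56.1%. The share in KI was thus the lowest after thinning, where KI was slightly above KO by CPM, and no order of the mutants is read from it. In cluster 8, where every cell had enough UMIs, the shares were 67.0% (62.45 to 71.2), 55.9% (49.2 to 62.51) and 61.4% (51.2 to 70.9). The KO interval met that of WT only at its edge and the KI interval overlapped both, and such overlap does not show equal shares. By CPM, cluster 8 held Capza3 at 611 (WT), 460 (KO) and 483 (KI). The log2 ratios there were −0.41 (−0.48 to −0.34) and −0.34 (−0.41 to −0.27). Thinned Sertoli-like cells, which should lack the gene, gave 17.2%, 20% and 13.6%, below the RS-like share of each library. The KI value came from 3 of 22 cells, and its interval (2.91 to 34.9) overlapped that of RS-like cells.

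Capza1, the somatic alpha subunit, was at 23.0, 65.5 and 54.0 CPM in RS-like cells, a log2 ratio of 1.47 (1.24 to 1.70) and 1.20 (0.95 to 1.44), and 1.07 and 0.80 with TMM. Where cells were assigned by marker share they were 0.57 and 0.35, and in cluster 2 the ratio in KI was 0.59 (−0.12 to 1.29, 32 UMIs), whose interval included 0. Like Pfn1 it was higher in both mutants and below the empty barcodes, which held 101, 160.3 and 144 CPM. Capzb was at 280.3, 217 and 206 CPM, with log2 ratios of −0.37 (−0.47 to −0.28) and −0.44 (−0.54 to −0.34), but it stood above WT, at 0.70 and 0.62, where cells were assigned by marker share.

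Shares within a family need no library total. Capza3 made up 94.6% of the UMIs of the 3 alpha subunits in the RS-like cells of WT (94.0 to 95.1), 84.4% in KO (83.0 to 85.7) and 87.6% in KI (86.3 to 88.8). All 3 intervals were apart, with WT highest and KO lowest. With cells assigned by marker share it was 91.7% (90.8 to 92.4), 88.5% (87.5 to 89.4) and 90.3% (89.3 to 91.3), where KI overlapped both others and the gap between WT and KO was smaller. Pfn1 made up 1.26% of the UMIs of the 4 profilins in WT (1.07 to 1.47), against 8.67% for KO (7.99 to 9.37) and 8.29% for KI (7.56 to 9.07), and the mutants overlapped each other only. Pfn3 was the main profilin of RS-like cells in every library, at 79.0%, 74.0% and 71.2%, and Pfn4 gave 15.3%, 11.8% and 14.0%. By marker share Pfn1 was at 1.44%, 7.24% and 7.10% and Pfn3 at 74.9%, 77.9% and 75.8%, so Pfn3 in KO was then above WT and in KI its interval overlapped that of WT. Empty barcodes had Capza3 at 78.2%, 59.3% and 69.9% and Pfn1 at 8.05%, 19.8% and 15.2%, which differed between the libraries in the same directions. The part of free RNA in the shares was not tested.

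**Figure D3:**
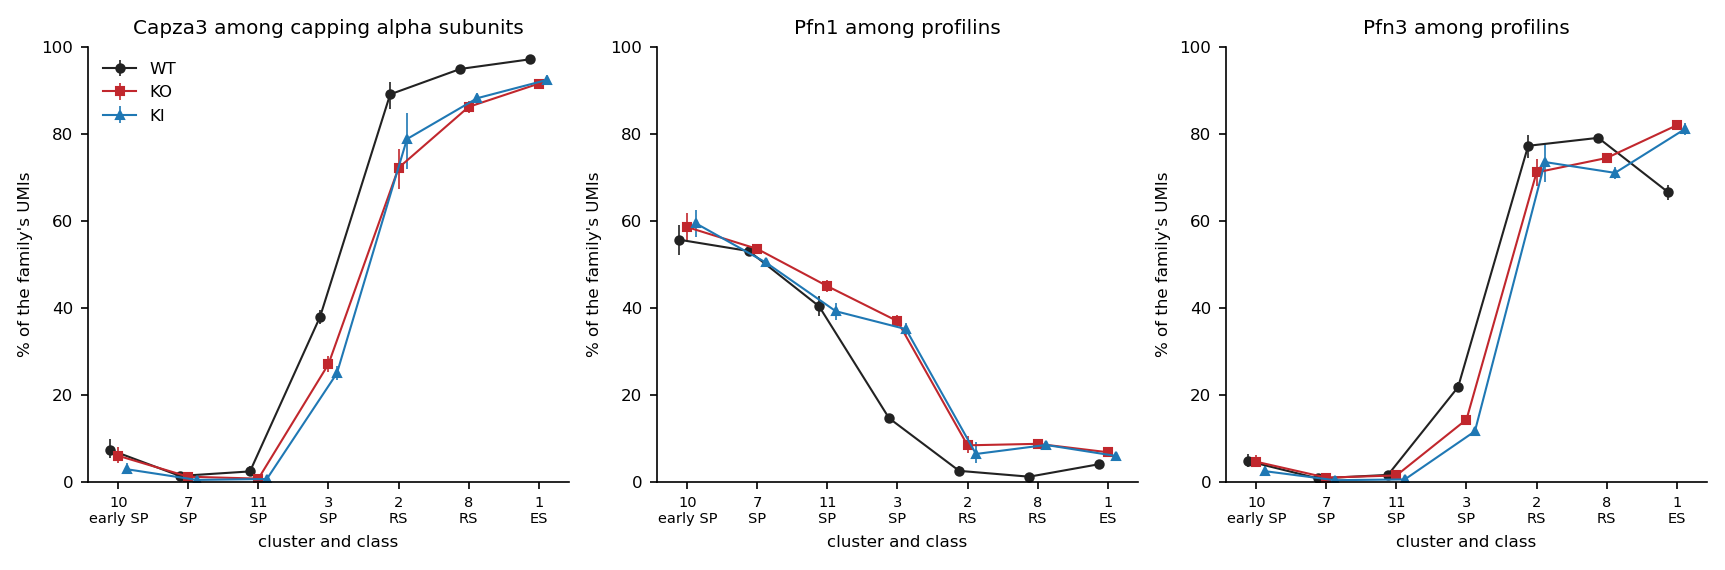
Share of a family's UMIs (vertical axis, percent) in 7 germ cell clusters in an assumed order of stage (horizontal axis) for Capza3 among the alpha subunits and for Pfn1 and Pfn3 among the profilins, in WT (circles), KO (squares) and KI (triangles), with exact 95% intervals. The libraries lay within a few percentage points in cluster 7, where Pfn1 was 53.0%, 53.5% and 50.4% of the profilins and the KI interval lay below both others, and WT lay below both mutants, which overlapped each other, in cluster 3, where it was 14.6%, 36.9% and 35.1%.

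In RS-like cells Pfn3 and Pfn4 were below WT in both mutants by UMI totals and by TMM, and in cluster 1 both were above WT by UMI totals. Pfn3 was at 939 (WT), 814 (KO) and 712 CPM (KI) in RS-like cells, with log2 ratios of −0.21 (−0.26 to −0.16) and −0.40 (−0.45 to −0.34). The 3 intervals were apart, with KI lowest. Pfn4 was at 182, 129.9 and 140.4 CPM, log2 ratios of −0.48 (−0.60 to −0.36) and −0.37 (−0.49 to −0.25), and the mutants overlapped each other below WT. With TMM the ratios were −0.62 and −0.80 for Pfn3 and −0.90 and −0.77 for Pfn4. By marker share Pfn3 was at −0.02 (−0.07 to 0.02) and −0.16, and Pfn4 at −1.02 and −0.89. Pfn4 was the one testis gene here whose level was higher in spermatocyte-like than in RS-like cells in all libraries, at 217, 201 and 203 CPM in SP-like cells.

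The actin-related genes differed less evenly. Actl7a was at 329.6, 368 and 353 CPM in RS-like cells, a log2 ratio of 0.16 (0.08 to 0.24) and 0.10 (0.02 to 0.18) that turned to −0.26 and −0.31 with TMM. Its neighbour Actl7b was at 453, 457 and 442 CPM, where all intervals overlapped and both intervals of the ratio, around 0.01 and −0.03, included 0, while TMM gave −0.40 and −0.44. The head-to-head pair was thus close between libraries by UMI totals. Actrt2 was at 777, 718 and 627 CPM, with WT highest and KI lowest and no overlap, a log2 ratio of −0.11 (−0.17 to −0.06) and −0.31 (−0.37 to −0.25). Actrt3 was at 114, 88.9 and 61.2 CPM, also apart and in the same order, and its log2 ratio of −0.89 (−1.07 to −0.71) in KI was the one below the ratio of 1.5, a call lost without integration, where it was −0.29 (−0.49 to −0.093). In KO it was −0.36 (−0.51 to −0.21), and 0.046 without integration. In cluster 8 alone the log2 ratio of Actrt2 was −0.01 (−0.07 to 0.04) in KO, which included 0, and −0.33 (−0.39 to −0.27) in KI. That of Actrt3 was −0.29 in KO and −1.01 in KI there. Both genes stood above WT where cells were assigned by marker share, Actrt2 at 0.74 and 0.55 and Actrt3 at 2.37 and 2.06, so their sign depends on which cells are called RS-like.

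In spermatocyte-like cells, of the 9 genes above 10 CPM there, all but Actrt3, 0 were past the ratio of 1.5 above WT in KO and 0 in KI, where 1.27% and 1.68% of all 8287 genes were. Below WT there were 2 in KO (Capza3 and Pfn3) and 3 in KI (those and Actrt2), where 8.41% and 6.97% of all genes were. Their median log2 ratio was −0.36 and −0.37, and that of all genes 0.04 and 0.06. In these cells the levels of Capza3 were 59.4, 25.0 and 27.1 CPM, with Pfn3 at 57.4, 26.9 and 21.7, Actrt2 at 29.3, 19.6 and 11.3 and Pfn1 at 222, 326 and 292. The latest cluster, 3, held 44.0% (WT), 25.2% (KO) and 30.8% (KI) of the SP-like UMIs, so these sums mixed stages differently. The 13 ES markers, all detected, summed to 3630, 735 and 504 CPM in SP-like cells and the 13 RS markers, all detected, to 1341, 872 and 861, so spermatid markers were lower in the mutants along with Capza3, Pfn3 and Actrt2. Their part in these differences was not tested.

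Within cluster 7 the genes of higher level were close between libraries. The log2 ratio of Pfn1 was 0.11 (0.05 to 0.17) and −0.03 (−0.09 to 0.03), that of Capza1 −0.04 and 0.03, and that of Capzb 0.01 and −0.05. Actrt2 was not, at 14.5 (WT), 7.82 (KO) and 1.98 CPM (KI), log2 ratios of −0.81 (−1.12 to −0.49) and −2.37 (−2.78 to −1.96). Capza3 and Pfn3, at 5.74 and 5.15 CPM in WT, had overlapping intervals in KO and were lower in KI, with log2 ratios of −1.27 (−1.74 to −0.78) and −0.85 (−1.32 to −0.37) from 29 and 39 UMIs. The means of Actrt2, Capza3 and Pfn3 there were 8.08, 4.14 and 4.81 CPM, below the minimum of 10 CPM. Empty barcodes held Pfn3 at 582, 445 and 549 CPM, and median UMIs per cell of cluster 7 were 31714, 35054 and 83539. The part of free RNA and depth in these ratios was not tested. In cluster 3 Pfn1 was at 82.1 (WT), 208 (KO) and 194 CPM (KI), log2 ratios of 1.33 (1.21 to 1.45) and 1.23 (1.11 to 1.35). Capza3 was at 126, 84.3 and 83.9 CPM there, log2 ratios of −0.57 and −0.58, and Pfn3 at 122, 80.6 and 64.1, log2 ratios of −0.60 and −0.92. Pfn4 was at 259, 174 and 182 CPM, log2 ratios of −0.57 and −0.50. Pfn1 thus stood above WT and Capza3, Pfn3 and Pfn4 below it in cluster 3 as in RS-like cells, also with TMM (Pfn1 at 1.26 and 1.14, Capza3 at −0.64 and −0.67). Other stages moved with this, as the ES markers in cluster 3 summed to 4756, 1790 and 1296 CPM, the RS markers to 2761, 2720 and 2383 and those of pachytene to late spermatocytes to 5109, 6046 and 6050, all markers being detected. Their part in the differences was not tested, and a difference between genotypes at 1 stage and a different mix of stages in this cluster cannot be told apart. Actl7a and Capzb stood slightly above WT there, at log2 ratios of 0.29 and 0.16 and of 0.18 and 0.19. Actrt2 was at 46.8 (WT), 51.4 (KO) and 31.9 CPM (KI) in cluster 3. Its log2 ratios were 0.13 (−0.05 to 0.32) and −0.54 (−0.75 to −0.33), so only KI was below WT there.

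Cluster 1, named ES-like, could not be compared as 1 stage. Without integration 93.7% of its KO cells and 90.7% of its KI cells, but 2.47% of its WT cells, went to 1 cluster, and the summed RS markers in cluster 1 came to 928 (WT), 5834 (KO) and 5476 CPM (KI) beside ES markers at 328572, 92569 and 99279. The cluster held 1135, 396 and 140 cells. Past the ratio of 1.5 were 7 of 10 genes above WT in KO and 7 in KI, where 68.6% and 67.6% of all 6574 genes were, and 0 below in each, where 7.47% and 6.74% were. The shares of the 10 genes were thus near those of all genes. The median of all genes was 1.25 and 1.19, and TMM moved it by −1.28 and −1.27. With TMM 4 of the 10 were past the ratio above WT in KO and 5 in KI and 3 below in each, against 33.0% and 32.1% of all genes above and 34.5% and 35.4% below.

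Pfn3, Actl7a, Actl7b and Actrt3, which had their WT peak in cluster 8, were all above WT in cluster 1 under both scales. Pfn3 was at 164 (WT), 926 (KO) and 839.7 CPM (KI), Actl7b at 64.3, 491 and 452, Actl7a at 113, 426 and 444 and Actrt3 at 98.6, 505 and 542. In WT all 4 were lower in cluster 1 than in cluster 8, and in the mutants the log2 difference between these clusters lay between −0.01 and 0.21 for Pfn3, Actl7a and Actl7b. Actrt3 in the mutants was far higher in cluster 1, by a log2 difference of 2.34 (2.20 to 2.48) in KO and 3.17 (2.98 to 3.35) in KI. Pfn1 was at 9.92, 76.5 and 61.2 CPM and Capza1 at 14.0, 41.7 and 35.3. The log2 ratios of Pfn1 were 2.83 and 2.51 by UMI totals and 1.56 and 1.25 with TMM. Those of Capza1 were 1.51 and 1.27 by UMI totals but 0.23 and 0.004 with TMM. Capza3 was at 629.6 CPM in WT (interval 615 to 644), against 538 for KO and 547 for KI, log2 ratios of −0.23 and −0.20, and Actrt2 gave −0.26 and −0.33. With TMM the ratios were −1.56 and −1.53 for Capza3 and −1.60 and −1.65 for Actrt2, so their size depended on the scale. Capzb at 0.13 and 0.25 and Pfn4 at 1.001 and 1.10 stood above WT by UMI totals and below it with TMM, at −1.20 and −1.08 and at −0.31 and −0.20.

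The rest of the actin machinery was read from a list of 63 genes. In RS-like cells 36 of them passed the minimum level, and 7 in KO and 6 in KI were past the ratio of 1.5 above WT, where 30.4% and 32.6% of all genes were, and 2 and 6 below it, where 9.53% and 12.0% were. With TMM these counts were 4 and 4 above, against 12.5% and 13.7% of all genes, and 7 and 7 below, against 22.1% and 23.4%. In both mutants 6 were higher and 2 lower, and 28 were neither, where 25.6% of all genes were higher and 8.23% lower in both. With TMM 3 were higher and 7 lower in both, against 9.73% and 19.0% of all genes, so this balance depended on the scale. Among partners of capping protein, Mtpn (myotrophin, which inhibits capping) was at 23.2 (WT), 47.4 (KO) and 45.8 CPM (KI). Carmil1 and Cd2ap, whose proteins also bind capping protein, were at 26.3, 62.2 and 63.3 and at 4.89, 15.8 and 17.5. Capza2, the other somatic alpha subunit, was at 10.1, 11.6 and 8.74 CPM, where all intervals overlapped, and its log2 ratio in KO turned from 0.18 to −0.20 with TMM.

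Actr3, a subunit of the Arp2/3 complex that branches filaments, was at 9.20, 21.7 and 19.95 CPM, and Arpc5l, another of its subunits, at 149, 84.8 and 83.0. Cfl1 (cofilin), which severs filaments, was at 229, 368 and 365 CPM and Cotl1, a cofilin-like actin-binding protein, at 9.004, 16.5 and 20.9. Fscn3, the testis fascin, a bundling protein, was at 33.7, 15.1 and 10.8. These 8 kept their sign with TMM, under which Cfl1 in both mutants (log2 ratio 0.27 in each), Mtpn in KI (0.56) and Cotl1 in KO (0.42) were short of the ratio of 1.5. Of the actins, Actb was at 736, 639 and 478 CPM and Actg1 at 112, 207 and 127, with log2 ratios of −0.20 and −0.62 for Actb and 0.88 and 0.17 for Actg1, the latter turning to −0.23 in KI with TMM. Pfn2 was at 53.5, 60.1 and 64.2 CPM, log2 ratios of 0.17 (−0.03 to 0.36) and 0.26 that turned to −0.25 and −0.14 with TMM.

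**Figure D4:**
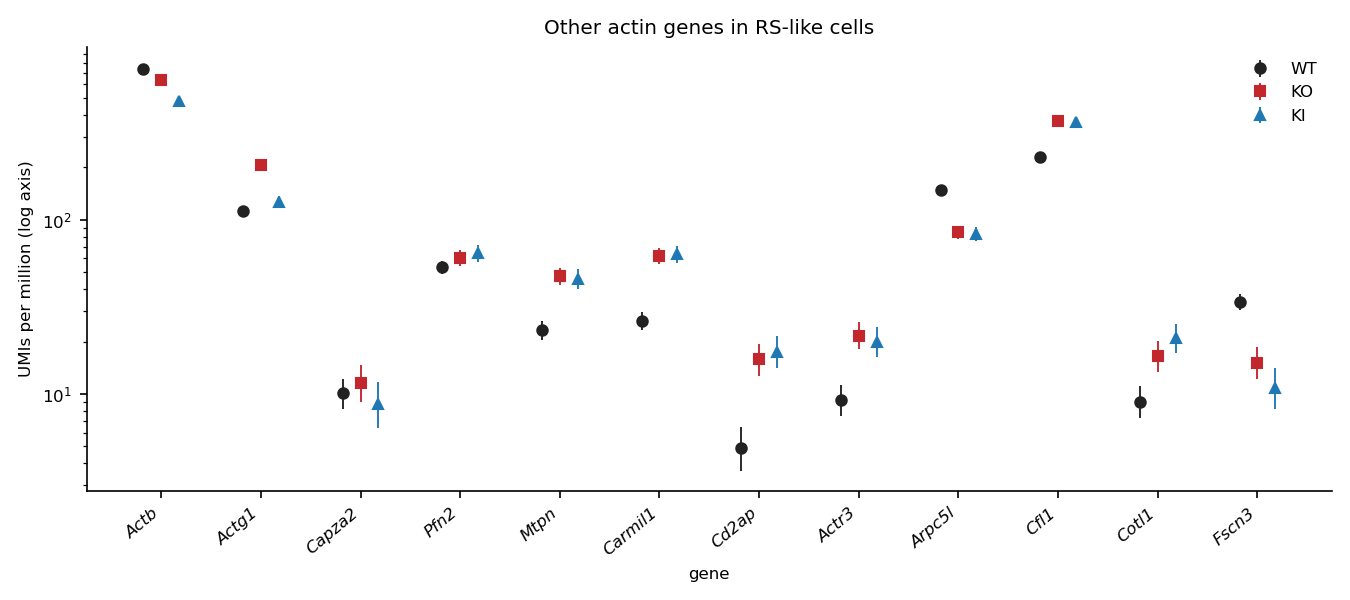
CPM (vertical log axis) of 12 further actin genes in RS-like cells of WT (circles), KO (squares) and KI (triangles), with 95% Poisson intervals. Both mutants were above WT for Mtpn, Carmil1, Cd2ap, Actr3, Cfl1 and Cotl1 and below it for Arpc5l and Fscn3 under both scales, while Capza2 in KO, Pfn2 in both and Actg1 in KI were above WT with totals and below it with TMM.

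In SP-like cells 36 of the 63 genes also passed the minimum level. None was past the ratio of 1.5 the same way in both mutants, with 0 above WT in KO, 1 in KI (Tmod3, at 10.4 CPM in WT and 16.6 in KI, named after its value was seen) and 0 below in either, where 1.27% and 1.68% of all genes were above and 8.41% and 6.97% below. In cluster 1 there were 29, of which 18 were above WT in both mutants and 3 below (Arpc5l, Fscn3 and Tmod4), where 64.7% of all genes were above and 5.67% below in both. With TMM 9 were above and 11 below in both, against 29.3% and 31.6% of all genes, so the split of the list there depended on the scale.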

How the data were processed

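The deposited files held raw UMI counts per gene and barcode, 1 matrix for each of WT, KO and KI, with all barcodes and no cell annotation. The authors' counting used Cell Ranger, with version 2.1.1 and mm10 in the submitters' processing notes and version 4 in the file header. Cells were called here by UMI total or by a test of barcodes of at least 500 UMIs against the empty profile (barcode ranks 45000 to 90000, 10000 simulations, false discovery rate 0.01), and cells with over 500 genes and under 10% mitochondrial UMIs were kept. Scanpy 1.11.5 Scrublet marked 145, 4 and 9 cells, which were kept in, and its mark of 0.0982% in KO is too low to be taken as a working call. Libraries were integrated with sctransform 0.4.2 in Seurat 5.3.0 (R 4.3.3, 2000 features, 100 components) and clustered with leidenalg 0.10.2 (20 neighbours, resolution 0.3), with 114 genes left out, among them all those described. Class names are rebuilt from markers and may differ from the study's.

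Counts were summed by class and library and divided by the UMI total. Ratios took 1 CPM added, TMM factors came from edgeR 4.0.16, and genes needed a mean of 10 CPM. Intervals used scipy 1.17.1, with numpy 2.4.6, pandas 2.3.3 and Python 3.11.15, and figures matplotlib 3.10.9. The ratio of class sums was tested on simulated Poisson counts, with the known shift of the total put back. That simulation did not cover an unknown shift of the total, cell calling, clustering, thinning or family shares. With 1 library a genotype no test was run. The genes named were all 10 in every class, and from the list of 63 those past a ratio of 1.5 the same way in both mutants plus Capza2, Pfn2, Actb, Actg1 and Cfl1, besides the 5 genes most like Capza3 and Pfn1. These genes and lists were chosen with earlier results of these data known. Alternatives changed the scale, the total, the pseudocount, the cell calls, the gene minimum, doublets, the integration, the class definition, the cluster, the ratio and the minimum level.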

Additional observations from a re-analysis of the deposited data

Results flagged for a closer look

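For 6 genes, both mutants stood on one side of WT in one class and on the other side in another, by UMI totals. The difference was not tested, since each genotype was 1 library. Log2 ratios are given for KO and then KI. Capzb was at −0.37 and −0.44 in RS-like cells, 0.09 and 0.05 in SP-like cells and 0.13 and 0.25 in cluster 1. Its interval in the SP-like cells of KI (−0.006 to 0.11) included 0. Actl7a was at 0.16 and 0.10 in RS-like cells, −0.40 and −0.37 in SP-like cells and 1.91 and 1.97 in cluster 1. Within SP-like cluster 3 alone, however, Actl7a stood above WT, at 0.29 (0.16 to 0.41) and 0.16 (0.03 to 0.29). That cluster held 44.0% (WT), 25.2% (KO) and 30.8% (KI) of the SP-like UMIs, and the part of this mix in the SP-like ratios was not tested. Actl7b was at −0.36 and −0.40 in SP-like cells and at 2.91 and 2.79 in cluster 1. Actrt3 was at −0.36 and −0.89 in RS-like cells and at 2.35 and 2.45 in cluster 1. Pfn3 was at −0.21 and −0.40 in RS-like cells, −1.06 and −1.36 in SP-like cells and 2.49 and 2.35 in cluster 1. Pfn4 was at −0.48 and −0.37 in RS-like cells, −0.11 and −0.10 in SP-like cells and 1.001 and 1.10 in cluster 1. With TMM Capzb and Pfn4 in cluster 1 were below WT as in RS-like cells, at −1.20 and −1.08 and at −0.31 and −0.20, while Capzb in SP-like cells was at 0.10 and 0.04, and Actl7a was below WT in RS-like as in SP-like cells. With classes by marker share, RS cells had Actrt3 at 2.37 and 2.06 and Capzb at 0.70 and 0.62, so neither then differed in sign from cluster 1. Cluster 1 could not be compared as 1 stage, so every contrast with it sets unlike cells side by side.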

How the results depend on the processing

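Log2 ratios in RS-like cells are given for KO and then KI. Capza3 stayed below WT and Pfn1 above it under every alternative run. These values chose the genes and the alternatives reuse the same UMIs, so the constant sign supports nothing by itself. In KI the interval included 0 for Capza3 with classes by marker share (−0.13 to 0.00013) and for Pfn1 in the earliest RS-like cluster (−0.04 to 1.57). Capza3 moved to −0.88 and −0.78 with TMM, −0.54 and −0.46 without protamines and transition proteins in the total, −0.13 and −0.066 with classes by marker share and −0.35 and −0.69 in the earliest RS-like cluster. Pfn1 moved to 2.19 and 2.00 with TMM, 2.08 and 1.89 with 10 CPM added, 2.27 and 2.06 without integration, 2.19 and 2.07 by marker share and 1.44 and 0.76 in the earliest cluster. The genes past the ratio of 1.5 numbered 7 in KO, 8 in KI and 7 in both with TMM (all genes 34.6%, 37.1% and 28.7%), against 2, 3 and 2 (39.9%, 44.6% and 33.9%). Signs turned for Capzb (0.70 and 0.62) and Actrt2 (0.74 and 0.55) by marker share, for Actl7a with TMM (−0.26 and −0.31) and in the earliest cluster (−0.35 and −0.060), and for Actrt3 by marker share (2.37 and 2.06), without integration in KO (0.046) and in the earliest cluster in KI (0.25). Actl7b in KO, whose ratio of 0.01 had an interval that included 0, was below 0 with TMM (−0.40), without protamines and transition proteins (−0.061), without Scrublet cells (−0.0012), without integration (−0.12) and in the earliest cluster (−0.21). The cause was not tested. Of 160 values of the 8 genes other than Capza3 and Pfn1, 143 kept their sign. Of the 2423 cells classed RS by marker share, 868 lay within 0.5 SD of the limit. The later RS-like cluster alone and the family shares were chosen after seeing the data. No paired analysis was possible because each genotype was 1 library, and no library could be left out.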

Other observations

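In the macrophage-like cluster Pfn1 was at 631 (WT), 858 (KO) and 1454 CPM (KI), from 12, 58 and 189 UMIs in 11, 25 and 32 cells, and the WT interval (326 to 1102) overlapped that of Leydig-like cells (258 to 469.5). Leydig-like cells held it at 352, 417 and 409 CPM and stromal-like cells at 289, 416 and 363, where the intervals of the libraries overlapped. Sertoli-like cells held Pfn1 at 204 CPM (interval 167 to 248), 332 (293 to 375) and 525 (436 to 628), with all intervals apart and WT lowest. ES markers summed to 56565, 10700 and 4968 CPM in the same cells and Sertoli markers to 4310, 3848 and 6710. Pachytene to late spermatocyte (4222, 4997 and 5463), endothelial (5.95, 9.05 and 26.3), Leydig (3.97, 82.7 and 302) and macrophage markers (7.93, 7.75 and 56.9) were highest in KI. Spermatogonial, early spermatocyte, RS and stromal and myoid markers were highest in KO. The part of these other cell types in the Pfn1 difference was not tested. Capza1 was at 161, 185 and 254 CPM in Sertoli-like cells and Capzb at 256, 231 and 245.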
